A study of Arabidopsis thaliana with 6 samples.

Results

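*MGH3*, *AtVEX1* and *TET15* are 3 genes read here as markers of pollen in *Arabidopsis thaliana* inflorescences. They were chosen by gene symbol among array probe sets that report a single gene, which gave 3 of 13356 measured genes. *MGH3* (AT1G19890) encodes a histone H3 of the male germ line. *AtVEX1* (AT5G62850), whose RefSeq synonyms are SWEET5 and Vegetative Cell Expressed1, belongs to the SWEET family of sugar transporters. *TET15* (AT5G57810) encodes a tetraspanin, a small protein that crosses the membrane several times. Only *MGH3* and *AtVEX1* carry a cell type in their names, so *TET15* is described by its family and not as a marker of a particular pollen cell.

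A mature pollen grain of *Arabidopsis* consists of a large vegetative cell that encloses the sperm cells. The vegetative cell grows the pollen tube and carries the sperm cells to the ovule. The germ line packs its chromatin with its own histone H3, and the gene of that histone is switched on by the germ-line transcription factor DUO1. SWEET proteins move sugars across membranes, and pollen depends on sugar supplied by the surrounding anther. Tetraspanins gather other proteins into patches of the plasma membrane, and some of them are made in the gametes.

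The study compared inflorescences, which hold flower buds and open flowers, of wild-type plants and of the mutant *top1α-2*, both in the accession Landsberg erecta and both grown under continuous light. *TOP1α* encodes a DNA topoisomerase 1, an enzyme that relaxes supercoiled DNA. There were 3 arrays of each genotype, described by the submitters as biological replicates, and the labels give no plant age, no number of plants per sample and no nature of the mutation. Values are log2 MAS5 signals on an Affymetrix array, so that 1 unit is a doubling, and the signal of each probe set is a summary of several short probes.

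Correlations over the brighter 50% of probe sets were 0.955 to 0.977 for wild-type arrays with each other, 0.978 to 0.985 for *top1α-2* arrays with each other and 0.887 to 0.938 for arrays of different genotype. Wild-type replicate 1 was the array farthest from *top1α-2*, with correlations of 0.887, 0.888 and 0.895. *TOP1α* itself was not analysed here, and the labels are therefore unchecked by its level. For 1 actin control the difference between its 3′ and 5′ probe sets, a measure of RNA quality, was higher on every *top1α-2* array than on any wild-type array, and 5 further control ratios overlapped. Of 12 listed genes of floral organ identity and patterning, only *SPT* and *UFO* were measured through single-gene probe sets. *SPT*, which patterns the carpel, averaged 8.06 ± 0.15 on wild-type arrays and 8.16 ± 0.16 on *top1α-2* arrays, and *UFO* was dim in both genotypes, at 3.99 ± 0.77 and 3.28 ± 0.99 (SD, n = 3).

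All 3 genes were lower in *top1α-2*. *MGH3* fell 4.71-fold, *AtVEX1* fell 4.76-fold and *TET15* fell 6.79-fold, and in each gene the highest *top1α-2* array lay below the lowest wild-type array. Differences were tested with limma over 22746 probe sets, and a probe set is called higher or lower at a Benjamini-Hochberg adjusted p under 0.05. By that rule 5.86% of all probe sets were called lower and 3.4% higher, and 14.5% had *top1α-2* values that all lay below the wild-type values. Because these 3 genes were picked with earlier results of the same arrays known, their shared direction is not set against that background. In whole inflorescences, fewer cells of a type and less RNA per cell cannot be told apart.

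The germ-line histone gene *MGH3* had log2 signals of 9.86, 8.69 and 8.83 on wild-type replicates 1, 2 and 3. On *top1α-2* replicates 1, 2 and 3 it had 6.67, 7.0 and 7.0. Wild-type replicate 1 was the high array, the other wild-type arrays were close together, and a gap of 1.69 separated the genotypes. The means were 9.13 ± 0.64 and 6.89 ± 0.19 (SD, n = 3), and the difference was −2.24 with an SE of 0.28 and a 95% interval from −2.85 to −1.62. The limma adjusted p was 0.000612. Of the 9 differences between a single mutant array and a single wild-type array, the smallest was −1.69 and the largest −3.19.

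The vegetative-cell gene *AtVEX1* had log2 signals of 10.82, 9.69 and 10.51 on the wild-type arrays, in order of replicate number. On the *top1α-2* arrays it had 8.36, 7.84 and 8.07. Here wild-type replicates 1 and 3 were high and replicate 2 was low, and the gap between genotypes was 1.33. The means were 10.34 ± 0.58 and 8.09 ± 0.26 (SD, n = 3). The difference was −2.25 with an SE of 0.25, a 95% interval from −2.81 to −1.69 and a limma adjusted p of 0.000321. *AtVEX1* stayed above the array median on every *top1α-2* array, where medians ran from 7.65 to 7.73.

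The tetraspanin gene *TET15* had log2 signals of 9.63, 7.57 and 8.96 on the wild-type arrays. On the *top1α-2* arrays it had 5.72, 5.83 and 6.32. The wild-type arrays spread over 2.06 units against 0.60 in *top1α-2*, and the gap between genotypes, 1.25, was smaller than the spread within the wild type. The means were 8.72 ± 1.05 and 5.96 ± 0.32 (SD, n = 3). The difference was −2.76 with an SE of 0.43, a 95% interval from −3.73 to −1.80 and a limma adjusted p of 0.00256. The call did not hold when the variance prior took no account of signal, where the limma adjusted p was 0.0636.

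**Figure D1:**
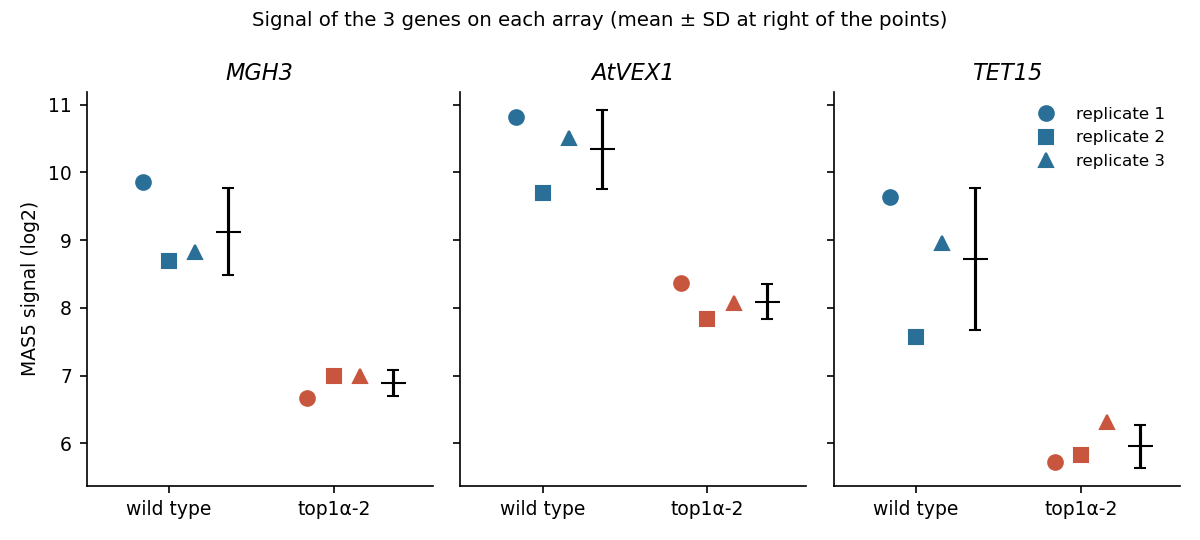
Log2 MAS5 signal of *MGH3*, *AtVEX1* and *TET15* on each of the 3 wild-type (blue) and 3 *top1α-2* (red) arrays, with the mean and SD of each genotype at the right of its points and the marker shape giving the replicate number. In each gene the 3 *top1α-2* points lie below the 3 wild-type points, and the wild-type points are the more spread.

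The arrays did not separate the sizes of the 3 decreases. The 95% interval of *TET15* spans a 3.48-fold to 13.2-fold decrease and holds the estimates of *MGH3* and *AtVEX1*. With each gene set to its own wild-type mean, *MGH3* minus *TET15* was between 0.27 and 0.76 on the *top1α-2* arrays and between −0.54 and 0.71 on the wild-type arrays, which overlap. *AtVEX1* minus *TET15* was between 0.13 and 1.02 on the *top1α-2* arrays and between −0.43 and 0.50 on the wild-type arrays, which overlap too. *MGH3* and *AtVEX1* differed by −0.48, 0.37 and 0.14 on the *top1α-2* arrays. A larger decrease of *TET15* is therefore not shown by these arrays.

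Within the wild type the 3 genes moved together in order. Each was highest on replicate 1, next on replicate 3 and lowest on replicate 2. *MGH3* deviated from its wild-type mean by 0.73, −0.44 and −0.30 on replicates 1, 2 and 3, so its replicates 2 and 3 were close. *AtVEX1* deviated by 0.48, −0.65 and 0.17, and *TET15* by 0.91, −1.15 and 0.24. On replicate 3 *MGH3* was thus below its mean while the other genes were above theirs. With 3 arrays a correlation was not computed.

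The same order was common on these arrays. It was seen in 20.4% of all probe sets, in 21.6% of the brighter ones and in 48.4% of the 1334 called lower, and wild-type replicate 1 was highest in 69.5% of those called lower. The size of the movement was less common among brighter probe sets. Of the 11369 probe sets with a mean signal above the median, 1.27% had a wild-type SD at least that of *MGH3*, 1.77% at least that of *AtVEX1* and 0.079% at least that of *TET15*. The mean of *TET15* over the 6 arrays, 7.34, lies a little below that median of 7.73. Among genes described below, *TET11*, *XIE* and *SWEET8* had wild-type SDs of 0.67, 0.75 and 0.81, while *PLIM2a* and *ACT11* had 0.27 and 0.12.

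In *top1α-2* the 3 genes had no shared order. *MGH3* was lowest on replicate 1 and equal on replicates 2 and 3. *AtVEX1* was highest on replicate 1 and lowest on replicate 2, and *TET15* was highest on replicate 3. Their SDs of 0.19, 0.26 and 0.32 were reached by 28.8%, 13.3% and 7.04% of the brighter probe sets. The spread of all 3 genes was larger in the wild type than in *top1α-2*, while brighter probe sets had a median SD of 0.16 among wild-type arrays and 0.14 among *top1α-2* arrays. Probe sets called lower had median SDs of 0.28 and 0.22, close to the 0.25 and 0.21 of all probe sets. In *top1α-2* the means of *MGH3* and *TET15*, 6.89 and 5.96, lay below the median signal of 7.73, so brighter probe sets are an imperfect reference there.

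**Figure D2:**
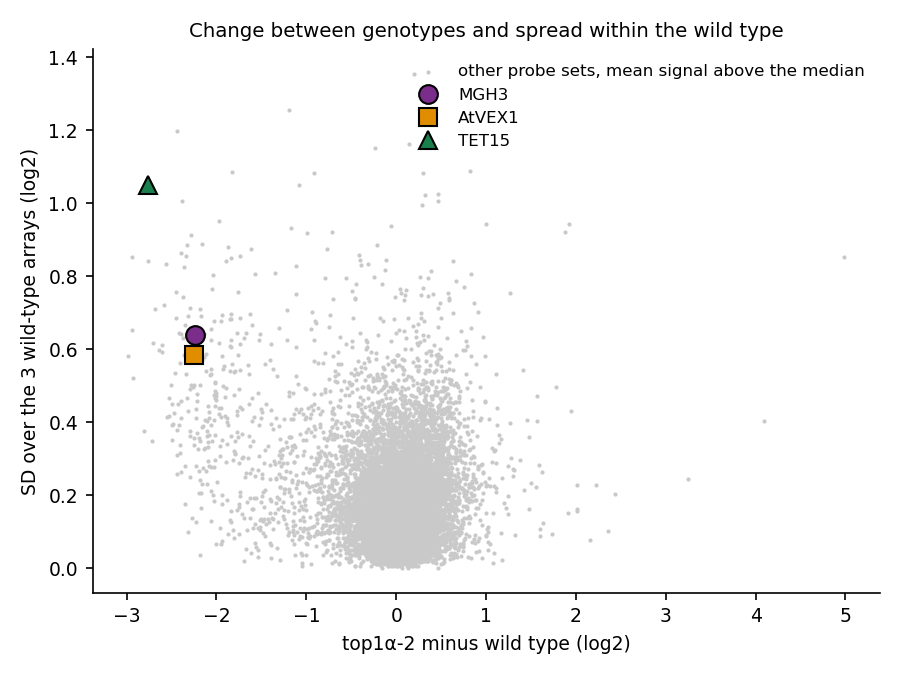
Change between genotypes (log2, horizontal) against the SD over the 3 wild-type arrays (log2, vertical), with 1 grey point for each probe set whose mean signal lies above the median and coloured symbols for *MGH3*, *AtVEX1* and *TET15*. The 3 genes sit at changes of −2.24, −2.25 and −2.76 with wild-type SDs of 0.64, 0.58 and 1.05, above most of the grey points.

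Since wild-type replicate 1 was the highest array for all 3 genes, the differences were also taken without it. *MGH3* then had a difference of −1.87 with a limma adjusted p of 0.000372. *AtVEX1* had −2.01 at 0.000622, and *TET15* had −2.31 at 0.0067. Without wild-type replicate 2, the lowest array, the differences were −2.46, −2.58 and −3.34. The calls of the 3 genes were kept with each of the 6 arrays left out, and the limma adjusted p was at most 0.00601 for *MGH3*, 0.00389 for *AtVEX1* and 0.0205 for *TET15*.

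Other genes of the vegetative cell and the pollen tube were lower as well. Of 27 genes listed for these cells, only 16 were measured through single-gene probe sets. Besides *AtVEX1* these were 15 genes, of which 12 fell, 0 rose and 3 were not called. Their median difference was −1.70, beside −0.003 over all probe sets, of which 5.86% were called lower. The list was chosen with earlier results of these arrays known. Without wild-type replicate 1, 10 of the 15 were called lower, and at an unadjusted p under 0.05 limma gave 0 higher. AT2G24370, on this list, had 8.34, 7.62 and 7.70 in the wild type and 4.96, 5.38 and 6.02 in *top1α-2*, a difference of −2.43 with a limma adjusted p of 0.00117. *ANX2*, a receptor kinase that keeps the growing tube intact, had 8.72, 8.01 and 8.10 against 5.72, 6.15 and 6.18. Its near relative *ANX1* had 7.08, 6.43 and 6.33 against a wide 2.24, 4.17 and 5.81, a difference of −2.54 that was not called, at a limma adjusted p of 0.0661. Without *top1α-2* replicate 3 *ANX1* was called, with a difference of −3.41 and a limma adjusted p of 0.0129. Without any other single array it was not called. Without *top1α-2* replicate 1 its difference was −1.62 at a limma adjusted p of 0.138.

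*PLIM2a*, whose protein binds actin filaments in pollen, had 11.26, 10.91 and 10.74 in the wild type and 9.08, 8.51 and 8.72 in *top1α-2*. The myosin gene *XIE* had 9.52, 8.02 and 8.70 against 6.87, 6.81 and 6.41. The actin genes *ACT12* and *ACT11* fell, with differences of −1.38 and −0.61 and 95% intervals from −1.88 to −0.89 and from −0.84 to −0.38. Without the signal trend in the variance prior *XIE* and *ACT11* were not called, at limma adjusted p values of 0.0616 and 0.063. Other listed genes not called were the MADS-box genes *AGL65* and *AGL94*, with differences of −0.40 and −0.70. *AGL94* was scattered, between 1.09 and 4.5 on wild-type arrays and between 0.02 and 3.94 on *top1α-2* arrays.

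Each of the 15 genes was highest on wild-type replicate 1, and 9 of them had the full order of the 3 genes. Their mean was 8.62, 7.76 and 8.01 on wild-type replicates 1, 2 and 3 and 6.53, 6.55 and 6.57 on the *top1α-2* arrays. As an internal reference on each array, this mean was subtracted from the signals of the 3 genes. *MGH3* was then 1.24, 0.93 and 0.82 in the wild type and 0.14, 0.45 and 0.43 in *top1α-2*. *AtVEX1* was 2.2, 1.93 and 2.5 against 1.83, 1.29 and 1.5, and *TET15* was 1.01, −0.19 and 0.95 against −0.81, −0.72 and −0.25. The genotypes still did not overlap for any of the 3 genes, though for *TET15* wild-type replicate 2 and *top1α-2* replicate 3 were 0.06 apart. Since the 3 genes were picked with earlier results of these arrays known, no weight is placed on this separation. Mean differences on this relative scale were −0.66 for *MGH3*, −0.67 for *AtVEX1* and −1.18 for *TET15*, an unequal change within arrays that was not tested. The list mean includes genes with small differences, such as *AGL65* at −0.40 and *ACT11* at −0.61. Others on the list, AT2G24370 at −2.43, *ANX2* at −2.26 and *PLIM2a* at −2.20, fell about as much as *MGH3* and *AtVEX1*. The relative values therefore do not set *MGH3* and *AtVEX1* apart from the list.

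Other markers of the male germ line were mostly out of reach. Of 15 listed genes, *DUO1*, *HAP2*, *GEX1* and *GEX2* among them, only *MGH3* and the tetraspanin genes *TET11* and *TET12* had single-gene probe sets. *TET11* had 9.45, 8.12 and 8.77 in the wild type and 7.30, 6.94 and 7.29 in *top1α-2*. It fell by 1.6 with a limma adjusted p of 0.00567, which was 0.0807 without the signal trend in the variance prior. *TET12*, dim on every array, had 5.66, 4.17 and 4.76 against 2.66, 2.75 and 3.45, without overlap. Such a full separation below the wild type was seen in 14.5% of all probe sets. The difference of *TET12*, −1.91 with an SE of 0.64, was not called, at a limma adjusted p of 0.0984. With a pseudocount of 16 it was −0.945. Both had the wild-type order of *MGH3*, with replicate 1 highest and replicate 2 lowest. The centromeric histone H3 gene *HTR12* was the only other H3 gene measured by symbol, and its difference was 0.18 with a 95% interval from −0.30 to 0.66.

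*TET15* had the lowest difference of the measured tetraspanin genes. Tetraspanin genes numbered 17 in RefSeq, of which 15 were measured. Besides *TET15*, only *TET11* fell, 0 rose and 13 were not called, and the median of the other 14 was 0.008. That 1 of 14 is near the 5.86% of all probe sets called lower. With an unadjusted p under 0.05 limma gave 3 of the 14 lower, *TET11*, *TET12* and *TET13*, and 1 higher, *TET3*. *TET13* had 5.81, 6.71 and 6.00 in the wild type and a scattered 5.55, 5.0 and 2.75 in *top1α-2*, a difference of −1.74 with a limma adjusted p of 0.152. Bright members had narrow intervals close to 0. *TET8* had a difference of −0.19 with an interval from −0.44 to 0.07, and *TET7* had 0.15 with an interval from −0.12 to 0.43. *TET3* had 0.33 with an interval from 0.04 to 0.61 and was not called, at a limma adjusted p of 0.151. The 95% intervals of *TET8*, *TET7* and *TET3* lay apart from that of *TET15*, which ran from −3.73 to −1.80. Those of *TET11*, *TET12*, *TET13* and *TET4* overlapped it, with lower ends of −2.24, −3.33, −3.24 and −2.86.

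*AtVEX1* had the lowest difference among the 16 measured genes of the SWEET family, 17 of which are in RefSeq. Of the other 15, 6 fell, 0 rose and 9 were not called, beside 5.86% of all probe sets called lower. Their median was −0.44, and at an unadjusted p under 0.05 limma gave 0 higher. Without wild-type replicate 1, 5 of the 15 were called lower. *SWEET14* had 11.17, 10.87 and 10.91 in the wild type and 9.26, 9.47 and 9.39 in *top1α-2*, a tight separation with a difference of −1.61 and an interval from −1.86 to −1.36. *SWEET7* had a difference of −1.41. *SWEET8*, which acts in the anther during formation of the pollen wall, had 10.99, 9.41 and 10.48 against 8.85, 8.40 and 8.91. It shared the wild-type order of *AtVEX1*, and its call was lost without *top1α-2* replicate 2 and without wild-type replicate 3, at limma adjusted p values of 0.0535 and 0.0556. *SWEET9*, *SWEET11* and *SAG29*, which is also called SWEET15, had differences of −0.23, −0.23 and −0.31 and were not called. Of the called genes, *SWEET4* lost its call without any of 5 of the 6 arrays, where the limma adjusted p reached 0.175, and *SWEET13* lost it without *top1α-2* replicate 3, at 0.0543.

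**Figure D3:**
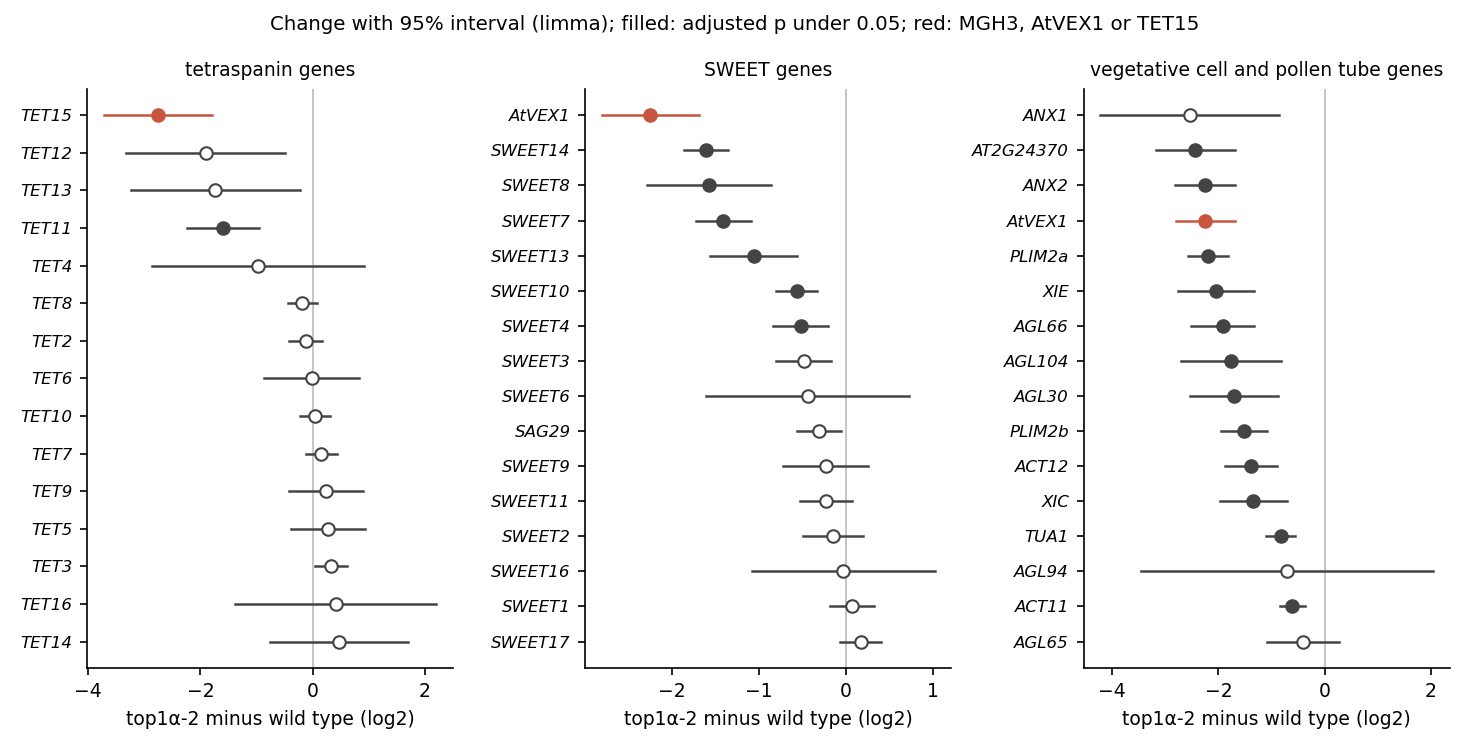
Difference between *top1α-2* and the wild type (log2, with the 95% interval of the limma fit) for each measured gene of the tetraspanin family (15 genes), the SWEET family (16) and the list of vegetative cell and pollen tube genes (16), ordered by difference. Filled points had an adjusted p under 0.05 and red points are *TET15* and *AtVEX1*, which have the lowest estimates of their families.

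Genes of surrounding anther tissue and of green tissue moved differently across the wild-type arrays. Of 17 listed genes of the tapetum and anther wall, 5 were measured, with a median of −1.19. Of these, 4 fell and 0 rose, beside 5.86% of all probe sets called lower. *ATA27*, a tapetum marker, had 13.50, 13.70 and 13.59 in the wild type and 12.26, 12.25 and 12.70 in *top1α-2*. In 4 of the 5 genes wild-type replicate 1 was the lowest array, opposite to *MGH3*, *AtVEX1* and *TET15*, and *SWEET8* was the exception. The mean of the 5 genes was 10.03, 10.00 and 10.15 in the wild type and 8.77, 8.63 and 9.05 in *top1α-2*. Without *SWEET8* the mean of the other 4 was 9.78, 10.15 and 10.07 in the wild type and 8.75, 8.68 and 9.09 in *top1α-2*. Without wild-type replicate 1 the same number, 4, were called lower.

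Of 20 listed genes of green tissue, 6 were measured, with a median of 0.67. Of these, 4 rose and 0 fell, beside 3.4% of all probe sets called higher. All 6 were lowest on wild-type replicate 1, the array where the pollen genes were highest. Their mean was 11.54, 12.05 and 11.99 in the wild type and 12.62, 12.47 and 12.40 in *top1α-2*. Without *top1α-2* replicates 1, 2 and 3 in turn, 1, 2 and 2 of them were called higher, and without wild-type replicate 1 there were 3. The part of tissue composition in the differences of *MGH3*, *AtVEX1* and *TET15* was not tested.

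**Figure D4:**
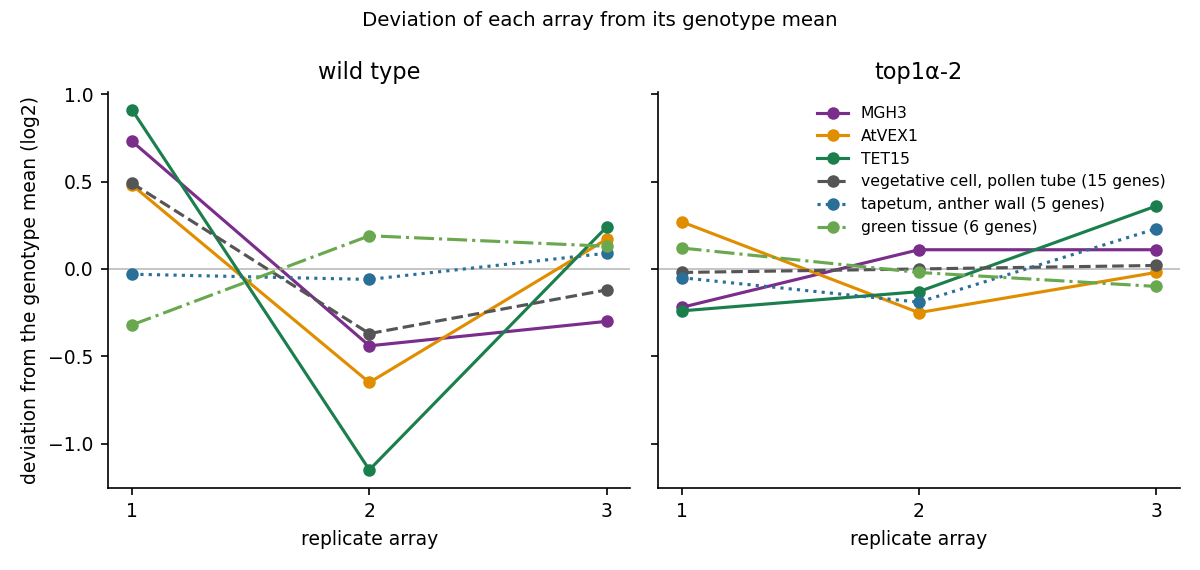
Deviation of each array from the mean of its genotype (log2, vertical) by replicate number, for *MGH3*, *AtVEX1* and *TET15* (solid lines) and for the means of 15 vegetative cell and pollen tube genes, 5 tapetum and anther wall genes and 6 green tissue genes (broken lines). In the wild type the 3 genes and the pollen list are highest on replicate 1 and lowest on replicate 2, while the green tissue mean is lowest on replicate 1, and in *top1α-2* the pollen list stays within 0.02 of its mean.

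The genes most like each of the 3 were found among 5884 genes with a mean signal above the median, by the root mean square difference over the 6 arrays after each gene was centred on its own mean. Nearest to *MGH3* were AT5G54095, *LCR72*, AT3G01250, AT2G19000 and AT5G50830, at 0.085 to 0.148 log2 units. *LCR72*, of a low-molecular-weight cysteine-rich peptide, had 9.72, 8.58 and 8.91 in the wild type and 6.84, 7.0 and 7.01 in *top1α-2*. AT5G54095 had 10.54, 9.23 and 9.51 against 7.34, 7.61 and 7.82.

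Nearest to *AtVEX1* were AT5G44300, AT5G19580, *CHX19*, AT3G50570 and AT3G15280, at 0.130 to 0.167. *CHX19*, of a cation/H+ exchanger, had 10.29, 9.07 and 9.91 in the wild type and 7.73, 7.58 and 7.77 in *top1α-2*. Nearest to *TET15* were AT5G03620, AT2G04020, AT4G13230, AT2G38905 and AT3G28780, at 0.265 to 0.290. The mean of *TET15* itself lies below the median that limited the candidates, so dimmer genes of its own signal range were not among them. AT2G04020 came nearest to its wild-type spread, with 10.47, 8.08 and 9.39 against 6.93, 6.77 and 6.91.

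By this measure the 3 genes were not each other's nearest where they could be ranked. *TET15* was not a candidate for *MGH3* or *AtVEX1*, since its mean lies below the median. *AtVEX1* ranked 78 in likeness to *MGH3*, and *MGH3* ranked 89 in likeness to *AtVEX1*, at 0.345 in both directions. For *TET15*, *AtVEX1* ranked 22 and *MGH3* ranked 26, at 0.457 and 0.477. The distance was taken over all 6 arrays, so the nearest genes were chosen in part for their wild-type order.

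Of 30 genes next to the 3 in locus order 3 were called, near the 9.26% of all probe sets called in either direction. Of the 10 nearest measured genes around *MGH3*, 0 were called by limma in either direction, with differences from −0.37 to 0.24, and with an unadjusted p under 0.05 the counts were 1 lower and 1 higher. Around *AtVEX1* 0 of 10 were called by limma, with differences from −1.10 to 0.36, and with an unadjusted p under 0.05 the counts were 0 lower and 1 higher. Around *TET15* differences ran from −2.61 to 1.30 with a median of 0.14, and 1 of 10 fell, AT5G57760, and 2 rose. The call of AT5G57760 was lost without wild-type replicate 3, at a limma adjusted p of 0.0758. These neighbours were chosen by position after the values of the 3 genes were seen.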

How the data were processed

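Biotin-labelled total RNA of 6 inflorescence samples was read on Affymetrix arrays, 1 sample per array. Per the submitters' processing notes the deposited values were made with affy and MAS5 at versions and with filters that those notes do not state. The deposited unit is log2 signal, and on every array the unlogged signals had a trimmed mean of 500 once 2% of probe sets were dropped at each end. Precision is limited by the number of arrays, 3 per genotype. Detection calls were not used here.

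Of 22810 probe sets 64 controls were set aside, and 22746 were fitted with limma 3.58.1 in R 4.3.3 on genotype alone (lmFit, then eBayes with a signal trend), with Benjamini-Hochberg adjustment and no filter or pseudocount. Differences are *top1α-2* minus wild type. The platform annotation names 1 gene for 13513 probe sets, several for 503 and none for 8730. RefSeq of assembly TAIR10.1 was the source of current symbols and gave a locus for 13436 of the single-gene probe sets. A gene with several probe sets was read through the brightest. The fit was tested on simulated data.

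The 3 genes, the gene lists and the tests were chosen with earlier results of these data known. Listed genes could be named with their values, as could up to 3 green tissue genes with the smallest p and the 5 genes nearest to each of the 3. SWEET genes were matched by symbol or synonym. Alternatives were quantile normalization, median centring, a pseudocount of 16, the brighter 50% of probe sets, a variance prior without trend, the replicate number as a block and each array left out. Promoter motifs were planned and not searched, since no sequences were used here.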

Additional observations from a re-analysis of the deposited data

Results flagged for a closer look

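A control signal outside the compared genes differed between the genotypes. For 1 actin control, its 3′ probe set exceeded its 5′ probe set by 3.42, 3.50 and 3.79 on the wild-type arrays and 4.05, 3.95 and 4.09 on the *top1α-2* arrays, 0.46 higher in *top1α-2* without overlap. It was the only 1 of 6 such ratios to be separated. Another actin control overlapped between the genotypes, with a difference of 0.04. The part of the separated ratio in the differences of *MGH3*, *AtVEX1* and *TET15* was not tested.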

How the results depend on the processing

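*MGH3* and *AtVEX1* kept their direction and their call in each of 12 alternatives, with differences from −2.46 to −1.87 and from −2.58 to −2.01. *TET15* kept its direction in 11, with differences from −3.34 to −2.31, and kept its call in 10. Its mean signal is below the median, so the brighter 50% of probe sets gave no value for it. Without the trend in the variance prior its difference was −2.76 and its limma adjusted p 0.0636. The same setting gave 209 probe sets called higher and 633 lower, in place of 773 and 1334. Among the other listed genes it left 7 vegetative cell and pollen tube genes lower in place of 12, 2 SWEET genes in place of 6, 0 in place of 1 for both the germ line and the tetraspanins, and 0 green tissue genes higher in place of 4. With the brighter 50% of probe sets 4 vegetative cell and pollen tube genes were called, because most of that list was not tested there. Median centring gave 1153 higher and 1167 lower. With single arrays left out the counts were 357 to 794 higher and 975 to 1335 lower, and without *top1α-2* replicates 1, 2 and 3 they were 357, 411 and 373 higher. The green tissue count was 1 to 4 with single arrays left out. With single arrays left out the uncalled difference of *AGL94* ran from −1.765 to 0.542, positive without *top1α-2* replicate 3, and that of *HTR12* from −0.045 to 0.34, negative without wild-type replicate 2. The causes of these shifts were not tested where the setting itself does not give them. Deviations of same-numbered arrays from their genotype means correlated at 0.095, 0.089 and 0.208 over the brighter probe sets, each the highest for its number, which is a hint from the data and not a pairing by design. With the replicate number as a replicate block the limma adjusted p was 0.00143 for *MGH3*, 5.62e-05 for *AtVEX1* and 0.00199 for *TET15*, 748 probe sets were higher and 1342 lower, and no call of a gene named here changed. Alternatives for list counts and for other genes were chosen after seeing the data.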
